A study of Mus musculus with 6 samples.

Results

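The genes described here are 10 members of the sterol synthesis pathway in mouse liver: Idi1, Fdps, Fdft1, Sqle, Lss, Cyp51, Nsdhl, Sc5d, Dhcr7 and Insig1. Every probe set annotated to exactly 1 gene symbol among these names was taken, which gave 15 of the 45141 probe sets on the array. For each gene the values below are those of its brightest probe set on average, so the 10 genes stand among 17097 genes that had a probe set with 1 symbol. All 10 lay above the limit for dim signal, a log2 value of 2.66, as did 12466 of all genes. The mice were Nrg4 knockout (KO) or wild type (WT), the strain is given as C57BL/6, and liver was taken in the random-fed state. Mice of both genotypes had reached 3 months of age when high-fat feeding began, and it lasted 8 weeks. Nrg4 encodes neuregulin 4, a secreted ligand of ErbB receptors that is enriched in brown fat. Each genotype had 3 arrays, and each array carried 1 pool of liver RNA. How many mice made up a pool, their sex and the extent of the Nrg4 deletion are not stated, so p-values measure the spread between pools.

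Cholesterol is built from acetyl-CoA through isoprenoid units, squalene and lanosterol. The enzymes of this route share a transcription factor, SREBP2, which is held in the endoplasmic reticulum when membrane sterol is plentiful and released to the nucleus when it is scarce. Liver is a main site of this synthesis, and the whole set of enzymes is known to move together with sterol supply, feeding and time of day. Insig1 encodes a protein that retains the SREBP complex in the endoplasmic reticulum and is itself a target of SREBP.

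The targeted gene separated the genotypes: Nrg4 read 2.56, 2.43 and 2.64 in the KO arrays, against 4.94, 4.79 and 4.77 in the WT arrays on the log2 scale. Its log2 change was -2.30 (SE 0.10, limma adjusted p = 4.76e-05), and where its probes lie relative to the deletion is not known here. Array medians over all probe sets were 2.98 to 3.04. The hepatocyte marker Alb, serum albumin, read 12.32 to 12.41 in the KO arrays and 12.30 to 12.34 in the WT arrays. The fat cell markers Adipoq and Lep were dim on average, and Lep read 2.54 to 2.77 over all arrays. Adipoq read 2.21, 2.37 and 2.32 in the KO arrays, against 2.38, 2.53 and 3.19 in the WT arrays, highest in WT replicate 3. The part of fat cells in the sterol gene values was not tested. In bulk tissue, fewer cells of a type and less RNA per cell cannot be told apart. The number of arrays limits the precision throughout.

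In 9 of the 10 sterol synthesis genes the range over the WT pools was wider than the difference between genotype means, the exception being Sc5d. How often this holds over all genes was not counted, so it is no result about these genes. WT replicate 3 held the highest value of the 6 arrays in all 10 genes, which was so in 10.9% of all genes tested. WT replicate 1 held the lowest value in 7 of 10, against 14.6% of all genes. Both held together in 7 of 10, against 2.53% of all genes, the exceptions being Lss, Sc5d and Insig1. The KO arrays therefore lay between these extremes in those 7 genes. No gene of the 10 differed between the genotypes in limma's test adjusted over all genes, where 0.0401% of 12466 genes passed.

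The start-site regions of these genes carry sequence features in common, and 5 are shown because the data place them in contrast: Idi1, Cyp51 and Nsdhl followed the common array pattern closely, while Insig1 and Sc5d did not. Each sequence is the RefSeq window of GRCm38.p6 from 250 bases before to 50 bases after the gene's start, read 5′ to 3′ on the gene's strand. Capitals mark CCAAT, the core letters bound by NF-Y, and GGGCGG, the core letters bound by Sp1, on either strand. Both factors are known partners of SREBP on sterol gene promoters.
Idi1 promoter, chr13:8885356-8885655, plus strand: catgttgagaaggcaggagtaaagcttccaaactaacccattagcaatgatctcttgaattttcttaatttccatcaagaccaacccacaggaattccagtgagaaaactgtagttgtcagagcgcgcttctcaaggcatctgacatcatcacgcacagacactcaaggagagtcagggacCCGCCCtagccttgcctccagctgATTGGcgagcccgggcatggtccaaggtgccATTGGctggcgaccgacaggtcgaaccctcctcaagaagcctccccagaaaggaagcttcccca
Cyp51 promoter, chr5:4104648-4104947, minus strand: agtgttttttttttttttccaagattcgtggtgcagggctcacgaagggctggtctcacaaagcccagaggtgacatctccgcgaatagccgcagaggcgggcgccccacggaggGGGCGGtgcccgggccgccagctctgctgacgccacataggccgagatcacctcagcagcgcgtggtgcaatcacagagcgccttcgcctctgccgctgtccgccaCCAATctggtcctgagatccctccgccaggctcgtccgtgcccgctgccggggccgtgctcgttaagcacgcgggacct
Nsdhl promoter, chrX:72918271-72918570, plus strand: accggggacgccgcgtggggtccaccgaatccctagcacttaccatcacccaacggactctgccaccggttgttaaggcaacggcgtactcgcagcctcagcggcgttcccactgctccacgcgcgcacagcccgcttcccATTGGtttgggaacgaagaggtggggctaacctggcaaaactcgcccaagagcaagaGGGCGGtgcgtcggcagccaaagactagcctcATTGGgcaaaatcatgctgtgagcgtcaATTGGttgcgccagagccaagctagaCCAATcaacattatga
Insig1 promoter, chr5:28071162-28071461, plus strand: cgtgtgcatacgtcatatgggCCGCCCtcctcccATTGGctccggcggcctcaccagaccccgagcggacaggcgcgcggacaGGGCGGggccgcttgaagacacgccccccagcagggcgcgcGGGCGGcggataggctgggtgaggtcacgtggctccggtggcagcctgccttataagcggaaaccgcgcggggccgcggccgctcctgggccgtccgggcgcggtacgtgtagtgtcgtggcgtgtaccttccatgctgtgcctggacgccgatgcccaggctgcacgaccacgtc
Sc5d promoter, chr9:42264251-42264550, minus strand: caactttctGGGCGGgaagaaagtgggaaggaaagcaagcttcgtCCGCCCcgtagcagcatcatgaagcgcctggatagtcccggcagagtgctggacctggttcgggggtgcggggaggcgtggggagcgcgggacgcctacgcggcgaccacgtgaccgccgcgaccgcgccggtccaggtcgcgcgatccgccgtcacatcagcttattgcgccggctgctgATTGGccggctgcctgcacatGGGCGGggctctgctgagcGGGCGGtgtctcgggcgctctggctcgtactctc

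Promoter windows were at hand for 7 of the 10 genes, 9 windows in all since Dhcr7 has 3. The letters CCAAT stood in 7 of these 9 windows and in at least 1 window of all 7 genes, against 37.4% of 32851 mouse windows of the same length. The letters GGGCGG stood in 8 of 9 windows, against 35.7% of all windows. No marked motif overlapped another. Idi1 held CCAAT centred 43 and 12 bases before the start, Cyp51 27 bases before it, and Sc5d 22 bases before it. Nsdhl held 4 copies, and the single copy of Insig1 lay 214 bases before the start. The SREBP-like letters TCACNCCA stood in none of the 9 windows and in 4.36% of all windows, which says only that these letters are not in these windows. The E-box letters CANNTG stood in 8 of 9 windows, against 72.3% of all. The windows of Insig1 and Sc5d thus held the same CCAAT and GGGCGG letters as those of Idi1, Cyp51 and Nsdhl.

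The isoprenoid steps came first along the route. Idi1, the isomerase that makes the reactive isoprenoid unit, read 7.23, 6.54 and 7.08 in the KO arrays, against 6.24, 7.32 and 8.32 in the WT arrays (log2). All KO values thus lay between the lowest and the highest WT value. Its log2 change was -0.34 (SE 0.44, 95% interval -1.35 to 0.67, limma adjusted p = 0.837). Fdps, farnesyl diphosphate synthase, which joins isoprenoid units, read 6.53, 6.53 and 6.82 in the KO arrays, against 5.54, 6.79 and 7.99 in the WT arrays. The KO arrays were close to each other, and WT replicate 2 was close to them, while the other WT arrays lay far below and far above. Its log2 change was -0.15 (SE 0.49, 95% interval -1.27 to 0.98, limma adjusted p = 0.946).

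**Figure D1:**
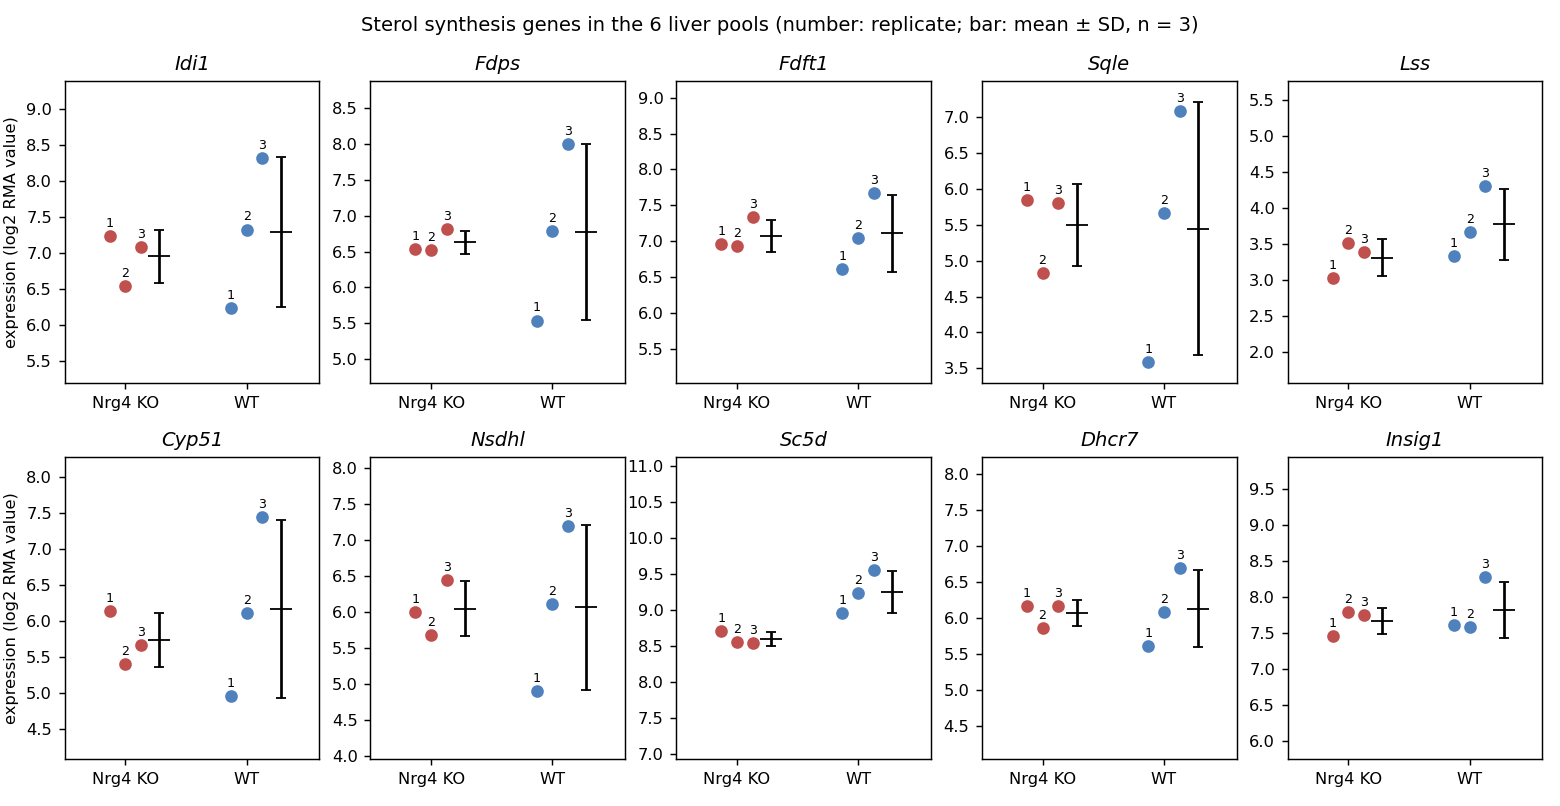
Log2 RMA values of the 10 sterol synthesis genes on the vertical axis, with the 3 Nrg4 KO arrays left of the 3 WT arrays in each panel, numbered by replicate; bars give the mean and SD of each genotype, and all panels span the same number of log2 units. WT replicate 3 is the highest array in all 10 panels, and Sc5d is the panel where the genotypes do not overlap.

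The committed steps of the route showed the widest and some of the narrowest swings. Sqle, squalene epoxidase, a rate-limiting step that SREBP2 controls strongly, read 5.84, 4.83 and 5.80 in the KO arrays, against 3.59, 5.66 and 7.08 in the WT arrays. Between WT replicates 3 and 1 this was an 11.2-fold difference, yet the genotype means were 5.49 ± 0.57 in KO and 5.44 ± 1.75 in WT (SD, n = 3). Its log2 change was 0.05, with the widest interval of the 10 genes, -1.62 to 1.72 (SE 0.73, limma adjusted p = 0.988). Fdft1, squalene synthase, read 6.97, 6.93 and 7.33 in the KO arrays, against 6.62, 7.05 and 7.68 in the WT arrays. Its array order was alike, with a smaller swing, and its log2 change was -0.04 (95% interval -0.59 to 0.51, limma adjusted p = 0.978). Lss, lanosterol synthase, which closes the sterol rings, read 3.03, 3.52 and 3.39 in the KO arrays, against 3.34, 3.67 and 4.31 in the WT arrays. Here KO replicate 1 was lowest, and WT replicate 1 lay among the KO arrays. Its log2 change was -0.46 (SE 0.23, 95% interval -0.99 to 0.07, limma adjusted p = 0.566). Its means, 3.31 ± 0.26 in KO and 3.78 ± 0.49 in WT (SD, n = 3), lay near the limit for dim signal.

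The steps after lanosterol held both the clearest examples of the array pattern and the gene that departed most from it. Cyp51, the lanosterol demethylase, read 6.14, 5.41 and 5.68 in the KO arrays, against 4.96, 6.11 and 7.45 in the WT arrays. Nsdhl, a dehydrogenase of the next demethylation steps, read 6.01, 5.69 and 6.46 in the KO arrays, against 4.91, 6.11 and 7.20 in the WT arrays. Dhcr7, the reductase of a last step to cholesterol, read 6.17, 5.85 and 6.17 in the KO arrays, against 5.61, 6.09 and 6.69 in the WT arrays. In these 3 genes the KO values again lay inside the WT span. Their log2 changes were -0.43 for Cyp51, -0.02 for Nsdhl and -0.07 for Dhcr7, with limma adjusted p-values of 0.826, 0.991 and 0.951.

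Sc5d, the sterol desaturase that acts just before Dhcr7, was the gene of the 10 in which the genotypes did not overlap, which held for 15.6% of all genes (3.92% with KO lower). It read 8.71, 8.55 and 8.54 in the KO arrays, against 8.96, 9.24 and 9.55 in the WT arrays. The KO arrays were all below the lowest WT array. The mean was 8.60 ± 0.10 in KO and 9.25 ± 0.30 in WT (SD, n = 3), a log2 change of -0.65 (SE 0.15, 95% interval -0.98 to -0.32) that did not pass over all genes (limma unadjusted p = 0.0018, adjusted p = 0.235). The exact permutation test of this gene gave p = 0.1, the smallest it can give. A dimmer probe set of the gene read 2.95, 2.95 and 2.95 in the KO arrays, against 3.11, 3.27 and 3.34 in the WT arrays, also without overlap. Another probe set of the gene, of intermediate signal, read 6.83, 7.01 and 6.99 in the KO arrays, against 6.61, 6.89 and 6.93 in the WT arrays, a log2 change of 0.14 (SE 0.11, limma adjusted p = 0.732). The probe sets of Sc5d therefore disagreed in direction. A control probe set for 18S ribosomal RNA also separated the genotypes, at 6.43, 6.59 and 5.74 in the KO arrays, against 7.92, 8.14 and 8.03 in the WT arrays. Its part in the values of Sc5d was not tested. Sc5d lies on the chromosome of Nrg4, chromosome 9, at 12.96 Mb from it per the RefSeq gene table of GRCm38.p6. The other 9 genes lie on other chromosomes. The part of this position in the values of Sc5d was not tested.

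Insig1, the regulator among the 10, read 7.45, 7.79 and 7.74 in the KO arrays, against 7.60, 7.58 and 8.27 in the WT arrays. WT replicate 3 stood apart from the other 5 arrays, and WT replicates 1 and 2 did not separate. Its log2 change was -0.16 (SE 0.19, 95% interval -0.58 to 0.27, limma adjusted p = 0.826).

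**Figure D2:**
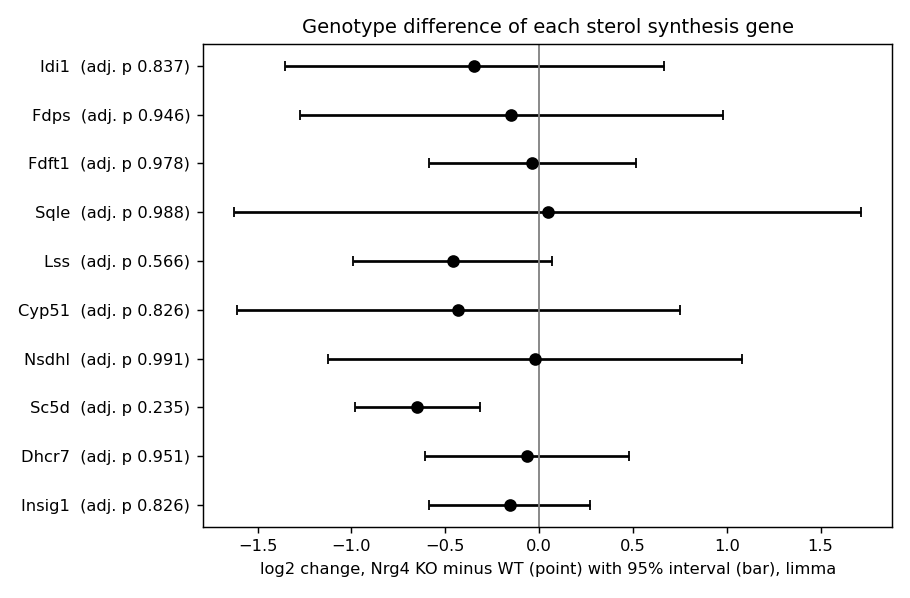
Log2 change of each sterol synthesis gene, Nrg4 KO minus WT, on the horizontal axis, with points for limma's estimate and bars for its 95% interval, and the adjusted p beside each name. The interval of Sc5d, -0.98 to -0.32, is the one that does not reach 0, and that of Sqle, -1.62 to 1.72, is the widest.

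Set beside all genes, 0 of the 10 passed limma's test at an adjusted p under 0.05, and 1 of the 10, Sc5d, had an unadjusted p under 0.05, against 9.55% of all genes (2.18% with a lower value in KO). A lower mean in KO was found in 9 of 10, all but Sqle, against 36.6% of all genes. The median log2 change of the 10 was -0.15, and that of all genes tested was 0.04. This count turned on single arrays. Without WT replicate 3, 2 of 10 had a lower mean and the median was 0.21, and without WT replicate 1, all 10 had a lower mean and the median was -0.72. Without KO replicate 2, 6 of 10 had a lower mean. With both WT replicates 1 and 3 left out, a choice made after seeing the values, 8 of 10 were lower with a median of -0.17. In each of these runs 0 of the 10 passed.

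The spread within each genotype was unequal. The range over the WT arrays was wider than the range over the KO arrays in all 10 genes, against 41.5% of all genes. The median range of the 10 was 0.45 over the KO arrays and 1.58 over the WT arrays, while the medians over all genes were 0.25 in KO and 0.20 in WT. The WT median of the 10 was 0.78 without WT replicate 3, 0.84 without WT replicate 1 and 1.58 without WT replicate 2. The KO median was 0.30, 0.29 and 0.33 without KO replicates 1, 2 and 3. A range over 2 arrays cannot exceed that over the same 3, so these medians could not rise. The medians over all genes are ranges over 3 arrays. A WT range of at least 1 log2 unit was found in 7 of 10 genes, against 0.578% of all genes (72 of 12466), and a KO range of that size in 1 of 10, Sqle, against 0.706%. By WT range, Sqle ranked 4, Cyp51 8, Fdps 9, Nsdhl 13 and Idi1 17 among 12466 genes. The ranks of Dhcr7, Fdft1 and Lss were 52, 59 and 78, and Insig1 and Sc5d followed at 290 and 484. The difference in spread rests on 3 arrays a genotype and was not tested.

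**Figure D3:**
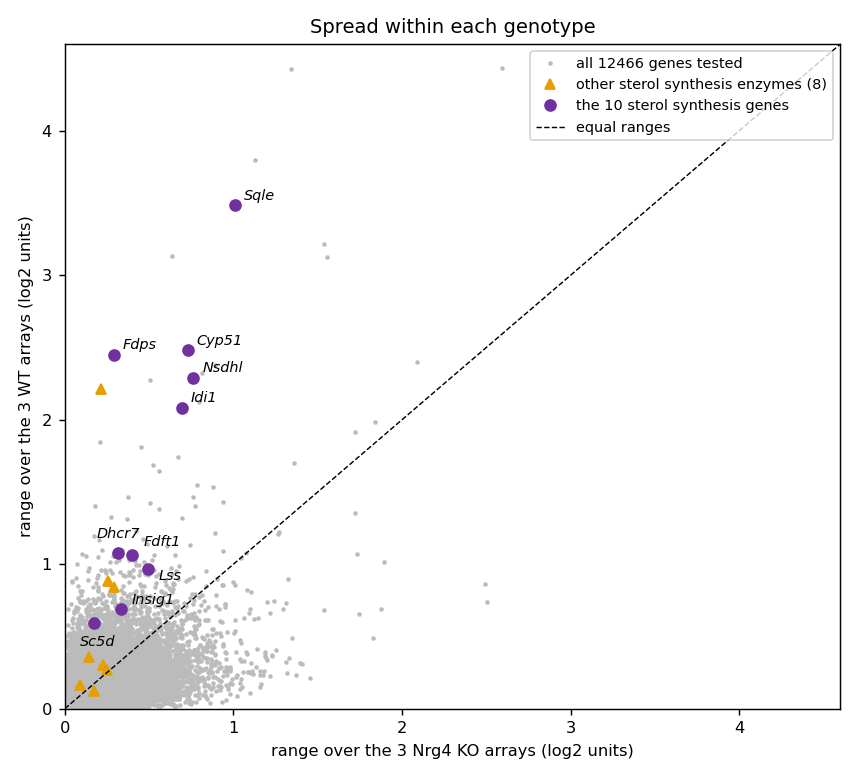
Range of each gene over the 3 Nrg4 KO arrays on the horizontal axis and over the 3 WT arrays on the vertical axis, in log2 units, for all 12466 genes tested (grey), 8 other sterol synthesis enzymes (triangles) and the 10 sterol synthesis genes (circles). All 10 circles lie above the line of equal ranges, with Sqle at 1.01 in KO and 3.49 in WT.

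Co-variation was described by Pearson's r between the values of gene pairs over the 6 arrays. It carries no p here, because the genes were chosen with results of these data known and every pair shares the same 6 arrays. All 45 pairs had an r above 0, with a median of 0.79 (median Spearman's rho 0.60), and 19 pairs exceeded 0.9. The shares of all gene pairs above 0 and above 0.9 were not counted, so these counts have no background beside them. The median over all 77694345 pairs of genes tested was 0.05, and 4.83% of them reached the median of the 10 genes. The closest pairs were Idi1 with Cyp51 at r = 0.99 (rho 0.94), Fdft1 with Nsdhl at 0.98 (rho 1.00) and Idi1 with Dhcr7 at 0.98 (rho 0.77). The loosest was Sqle with Sc5d at 0.44 (rho 0.26). Against the mean of the other 9 genes, Dhcr7, Fdps and Idi1 had r = 0.98, Cyp51 and Nsdhl 0.96, Fdft1 0.94 and Sqle 0.93. Lss had 0.74, Insig1 0.73 and Sc5d 0.59. By rank the last of these were looser, with rho of 0.71 for Lss and 0.26 for both Insig1 and Sc5d. In the rest rho ran from 0.77 for Sqle to 0.94 for Idi1.

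With each genotype's mean subtracted, a choice made after seeing the values, the median r of the 10 genes was 0.93, and 1.48% of all gene pairs reached it. Within the WT arrays Sc5d thus followed the others, with WT replicate 1 lowest and WT replicate 3 highest, as in 9 of 10 genes and 16% of all genes. The median r over the 6 arrays rested on WT replicate 3, without which it was 0.40. Without any other single array it was 0.82 to 0.89, and it was 0.88 without WT replicate 1. Without both WT replicates 1 and 3 it was 0.39 over 4 arrays, with 32 of 45 pairs above 0. The same values over all gene pairs were not computed for runs with arrays left out. Whether co-variation beyond the background remained in them is thus not known. Among the KO arrays, replicate 2 was lowest in 7 of 10 genes, against 29.2% of all genes, and these were the same 7 genes in which WT replicate 1 was lowest and WT replicate 3 highest. All of these features together held in 0.818% of all genes.

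**Figure D4:**
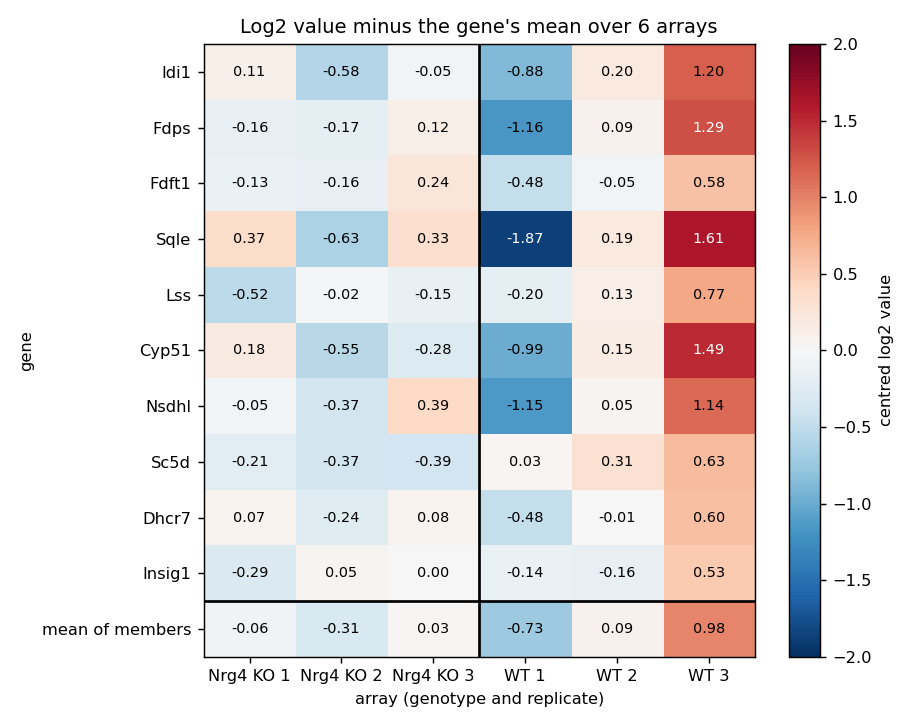
Log2 value minus the gene's mean over 6 arrays (colour and number) for each sterol synthesis gene in rows, with the 3 Nrg4 KO arrays left of the 3 WT arrays; the last row is the mean of the 10 genes. That mean was -0.06, -0.31 and 0.03 in the KO arrays and -0.73, 0.09 and 0.98 in the WT arrays.

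Idi1 and Cyp51 had further probe sets, and the second of each had WT replicate 1 lowest and WT replicate 3 highest. The second probe set of Idi1 read 7.06, 6.42 and 7.05 in the KO arrays, against 5.36, 7.32 and 8.58 in the WT arrays, a WT span of 9.29-fold where the brighter one gave 4.24-fold. The second of Cyp51 read 4.59, 4.16 and 4.49 in the KO arrays, against 3.09, 4.66 and 6.12 in the WT arrays. Over the 6 arrays these had r = 0.98 and 0.97 with the main probe set of their gene. The remaining one of Cyp51, with a mean of 3.02, read 3.02, 3.08 and 2.55 in the KO arrays, against 2.87, 3.14 and 3.49 in the WT arrays. Its lowest array was KO replicate 3, so it did not have that order, and its r with the main probe set was 0.73.

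The other enzymes of the route show how far the pattern reached. Of those listed for comparison, 8 were tested, and Hmgcs1, which makes the precursor of mevalonate, was dim. None of the 8 passed limma's test, with 1 at an unadjusted p under 0.05, against 9.55% of all genes. The median log2 change of the 8 was -0.03. Msmo1, the sterol oxidase that works with Nsdhl, read 8.27, 8.15 and 8.37 in the KO arrays, against 7.14, 8.33 and 9.35 in the WT arrays. It ranged as widely as the 10 genes and had r = 0.97 with their mean, as had Tm7sf2, a sterol reductase. Tm7sf2 read 7.91, 7.61 and 7.87 in the KO arrays, against 7.57, 8.04 and 8.41 in the WT arrays. Hsd17b7, a ketosteroid reductase of the same route, had r = 0.91, with a WT range of 0.88.

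The remaining enzymes of that list moved little. The mevalonate enzymes Mvk and Mvd had WT ranges of 0.27 and 0.36 and r of 0.84 and 0.85. Ebp, a sterol isomerase, and Lbr, a sterol reductase of the nuclear envelope, had WT ranges of 0.16 and 0.31 and r of 0.71 and 0.65. Ggps1, which leads isoprenoids away from sterols, had r = 0.00 and read 3.87, 4.04 and 3.92 in the KO arrays, against 3.64, 3.77 and 3.76 in the WT arrays. These did not overlap, as in 15.6% of all genes, and the log2 change was 0.22 (SE 0.09, limma adjusted p = 0.501).

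The regulators of SREBP did not share the swing. Srebf2, which encodes SREBP2, read 4.64, 4.52 and 4.73 in the KO arrays, against 4.51, 4.82 and 4.76 in the WT arrays, with r = 0.74. Its values spanned 0.30 log2 units in all, where Sqle spanned 3.49. Scap, the escort of SREBP, read 7.56 to 7.76 in the KO arrays and 7.66 to 7.77 in the WT arrays. Insig2, the second retention protein, read 9.43, 9.26 and 9.29 in the KO arrays, against 9.01, 9.12 and 9.08 in the WT arrays. Its genotypes did not overlap, as in 15.6% of all genes, with a log2 change of 0.26 (SE 0.09, limma adjusted p = 0.423) and r = -0.04. Of 6 regulators tested, 0 passed limma's test and 1, Insig2, had an unadjusted p under 0.05, against 9.55% of all genes. The median r was -0.03, and Mbtps1 and Ubxn8 had log2 changes of 0.08 and 0.18.

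Other genes of sterol handling were mixed. Stard4, a sterol carrier and SREBP2 target, had r = 0.93 and read 6.45, 6.49 and 6.46 in the KO arrays, against 6.27, 6.45 and 7.14 in the WT arrays. Of 8 tested targets in uptake and transport, 0 passed limma's test and 1, Acly, had an unadjusted p under 0.05, against 9.55% of all genes. The log2 changes of the leading 3 by p were 0.21 for Acly, which supplies acetyl-CoA, -0.22 for Npc1, which exports cholesterol from lysosomes, and -0.18 for Tmem41b. Of 8 LXR targets and genes of sterol removal, 0 passed limma's test and none had an unadjusted p under 0.05. Their leading 3 had log2 changes of 0.16 for Mylip, 0.22 for Abcg1 and 0.10 for Lpcat3. The median r of this list with the sterol genes was -0.13, against -0.14 over all genes tested. Its members were spread widely, from -0.81 for Mylip to 0.87 for Cyp7a1, which is described below.

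Fatty acid synthesis genes, which SREBP1c controls, were set beside the sterol genes. Their median r with the sterol genes was 0.07, and 1 of 11 had WT replicate 3 highest and WT replicate 1 lowest, against 2.53% of all genes. Thrsp, a lipogenic regulator, read 10.08, 10.18 and 10.13 in the KO arrays, against 9.11, 9.37 and 8.76 in the WT arrays. Its genotypes did not overlap, as in 15.6% of all genes, and within WT its lowest array was the one in which sterol genes were highest. None of the 11 passed limma's test, while 4 had an unadjusted p under 0.05, against 9.55% of all genes. Their median log2 change was 0.19, and Thrsp, Me1 and Scd1 stood at 1.05, 0.69 and 0.32. The difference between both groups of genes was not tested.

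**Figure D5:**
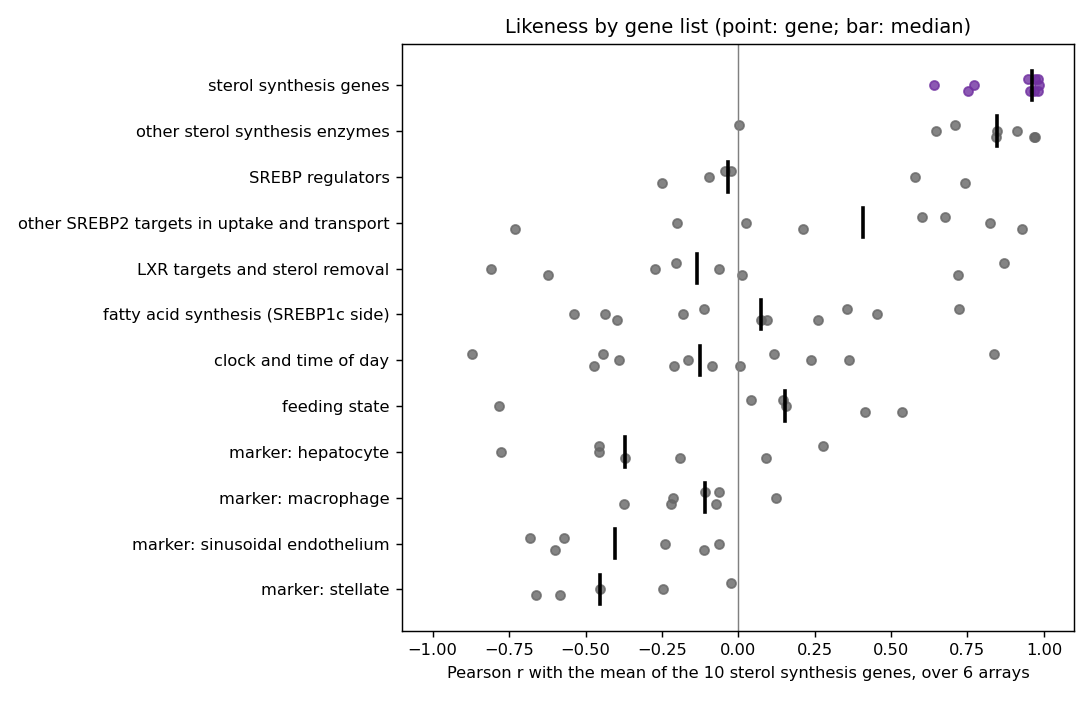
Pearson's r of each gene with the mean of the 10 sterol synthesis genes over the 6 arrays on the horizontal axis, by gene list, with a point per gene and a bar at the list's median. The sterol synthesis genes have a median of 0.96, a value their own part in the mean raises, and the other sterol enzymes have 0.85, while SREBP regulators lie at -0.03 and fatty acid synthesis genes at 0.07.

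Time of day and feeding state were looked at through gene lists, because the labels do not state the hour of harvest. The 12 clock genes tested had a median WT range of 0.19, against 0.20 for all genes. Their median KO range was 0.40, against 0.25 for all genes. Their r with the sterol gene mean ran from -0.87 to 0.84, with a median of -0.12, against -0.14 over all genes tested. Their 3 genes with the smallest p, Cry1, Nr1d2 and Clock, had log2 changes of 0.23, -0.14 and -0.29. The 6 genes of feeding state had a median range of 0.27 in WT and 0.49 in KO. Their r with the sterol gene mean ran from -0.78 to 0.53. Among them, Fgf21, Pdk4 and Angptl4 had log2 changes of -0.51, -0.49 and -0.17. The part of time of day and feeding in the sterol gene values was not tested. The order with WT replicate 3 highest and WT replicate 1 lowest was in 0 of 12 and 0 of 6, near the background of 2.53% of all genes and so no result about either list. No gene of either list passed limma's test, and 1 of them, Fgf21, had an unadjusted p under 0.05, against 9.55% of all genes.

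Markers of cell types in liver were summed for each array. The summed linear signal of the hepatocyte markers was 23715 to 24357 in the KO arrays and 23506 to 24702 in the WT arrays. The summed macrophage signal was 1049 to 1548 in the KO arrays and 920 to 1051 in the WT arrays. That of the endothelial markers was 253 to 336 in the KO arrays and 200 to 243 in the WT arrays. The stellate cell markers summed to 761 to 844 in the KO arrays and 536 to 644 in the WT arrays. The endothelial and stellate sums thus did not overlap between genotypes. All 7 macrophage, 6 endothelial and 5 stellate cell markers had a higher mean in KO, against 7905 of all 12466 genes tested. In each of these lists 3 markers had an unadjusted p under 0.05, against 9.55% of all genes. The part of these markers in the sterol gene values was not tested. The log2 changes of the leading markers were 0.64 for Adgre1, 1.29 for Lyve1, 0.80 for Col3a1 and 0.22 for Tat, and none of the markers passed limma's test. As a sign of RNA integrity, the signal at the 5′ end less that at the 3′ end, averaged over the Actb and Gapdh controls, was -1.31, -0.70 and -0.65 in the KO arrays and -0.95, -0.78 and -0.96 in the WT arrays. The part of RNA integrity in the sterol gene values was not tested.

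The genes most like the sterol genes were found by r with their mean among all other genes tested. The 8 highest were Lcn2, Orm2, Fabp5, Chordc1, Fam25c, Msmo1, Dct and Tm7sf2, with r of 0.99, 0.98, 0.98, 0.98, 0.97, 0.97, 0.97 and 0.97. Lcn2, an acute-phase protein that binds iron carriers of bacteria, read 7.34, 6.49 and 7.83 in the KO arrays, against 5.30, 7.35 and 9.72 in the WT arrays. Its lowest and highest arrays were those of the sterol genes, and its WT range of 4.43 was wider than that of Sqle. Orm2, an acute-phase orosomucoid, read 6.88, 6.51 and 7.63 in the KO arrays, against 5.97, 7.46 and 9.77 in the WT arrays. Fabp5, a fatty acid binding protein, read 7.70, 7.19 and 7.37 in the KO arrays, against 6.57, 7.57 and 8.84 in the WT arrays. In all of these genes WT replicate 3 was highest and WT replicate 1 lowest, and their part in the sterol gene pattern was not tested.

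The 4 genes with the lowest r were Ccdc181 at -0.99 and Sox5, Fcgr2b and Pdik1l at -0.98. Fcgr2b, an inhibitory Fc receptor, read 7.77, 7.82 and 7.82 in the KO arrays, against 8.08, 7.74 and 7.40 in the WT arrays. It was thus the mirror image of the sterol genes within WT, at a range of 0.68. In all, 64 other genes, 0.514% of those outside the 10, had an r of at least 0.9. Over 6 arrays such values are descriptions.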

How the data were processed

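Per the submitters' processing notes, the tools were affy, RMA and limma, with versions and genome build not given in the sources used here. Per the labels' protocols, Trizol-extracted total RNA was made into biotinylated aRNA (3′ IVT Express kit), and the series text names Affymetrix MG-430 PM strip arrays. The authors deposited log2 values, 1 per probe set and array, which run from 1.03 to 12.53. RMA quantile-normalizes arrays, so a shift of most genes one way would be reduced.

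Gene names came from the platform annotation: 28898 probe sets had 1 symbol, 551 several and 15588 none here. A gene was left out as dim where its mean lay below the 40th percentile over non-control probe sets. On the 23 nonspecific controls the median signal was 1.65 to 1.76 by array. Genotypes were tested two-sided with lmFit and eBayes (limma 3.58.1, R 4.3.3), and p-values were adjusted over 12466 genes by Benjamini-Hochberg at a threshold of 0.05. The limma fit was tested on simulated data. Correlations, ranges and array orders were computed in Python 3.11.15, promoters were matched by symbol, and figures were drawn with matplotlib 3.10.9.

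The genes described and the lists were chosen with earlier results of these data known. Named genes are the 10 genes, the other sterol enzymes, the 3 of each list with the smallest p, the 8 most and 4 least like the 10 genes, and Nrg4. Others (Srebf2, Scap, Stard4, Alb, Adipoq, Lep and those under other observations) were chosen after their values were seen. Alternatives were other normalizations, filters and variance models, array weights, means of probe sets, each array left out, and the replicate number as a block.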

Additional observations from a re-analysis of the deposited data

How the results depend on the processing

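None of the 10 sterol genes passed under any alternative run. The count of genes called, 5 of all genes tested, was 8 with quantile normalization again, 3 with the filter at the 60th percentile or with the mean of probe sets, 29 with a variance trend, 50 with array weights, 1 without WT replicates 1 and 3, and 1 to 17 with each array left out. The replicate block gave 2 called genes and left the median of the sterol genes at -0.15. Same-numbered arrays had r of deviations from genotype means of -0.15, 0.03 and -0.01. Arrays of different number had r from -0.17 to 0.16, so no pairing by number was seen. Whether any arrays shared a batch was not tested. The count of sterol genes with a lower mean in KO was 2 to 10 with each array left out, lowest without WT replicate 3. Their median log2 change lay between -0.72 and 0.21 in these runs, and the median r between 0.40 and 0.89. It was 0.39 without WT replicates 1 and 3, and the median over all gene pairs was not computed for these runs.

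With array weights, the log2 change of Fdft1 stood at 0.047, Sqle at -0.037, Nsdhl at 0.038 and Insig1 at 0.0027. Without WT replicates 1 and 3, Fdft1 stood at 0.031, Sqle at -0.17 and Insig1 at 0.081, a choice made after seeing the data. With each array left out, the log2 change ran from -0.87 to 0.17 for Idi1, -0.76 to 0.46 for Fdps, -0.28 to 0.25 for Fdft1, -0.88 to 0.86 for Sqle, -1.04 to 0.20 for Cyp51, -0.60 to 0.54 for Nsdhl, -0.32 to 0.21 for Dhcr7 and -0.28 to 0.069 for Insig1. It stayed below 0 for Lss (-0.68 to -0.19) and Sc5d (-0.79 to -0.50), though another probe set of Sc5d stood at 0.14. The cause of the other reversals was not tested.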

Other observations

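Genes of a wide WT range that followed the sterol genes were listed after their values were seen. Outside the 10 sterol genes, 65 genes had a WT range of at least 1 log2 unit, and 13 of these had an r of at least 0.9 with the sterol gene mean, while 4 had an r of -0.9 or less. The 13 were Lcn2, Orm2, Fabp5, Msmo1, Dct, Cpne8, Aldoc, Saa3, Gnai1, Dnajb1, Apcs, Saa2 and Saa1. Lcn2, Orm2, Saa1, Saa2, Saa3 and Apcs are acute-phase proteins, which liver makes in inflammation. Saa1 read 10.47, 8.98 and 10.51 in the KO arrays, against 8.29, 10.85 and 11.51 in the WT arrays. Apcs, serum amyloid P component, read 9.73, 8.96 and 9.77 in the KO arrays, against 8.39, 9.05 and 10.72 in the WT arrays. In both genes WT replicate 1 was the lowest and WT replicate 3 the highest of the 6 arrays, and KO replicate 2 was the lowest KO array, the order seen in 7 of the 10 sterol genes. Saa1 and Saa2 are near-identical copies, so their signals cannot be fully told apart.

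Cyp7a1, the rate-limiting enzyme of bile acid synthesis from cholesterol, had r = 0.87 with the sterol genes. It read 9.09, 8.93 and 9.11 in the KO arrays, against 8.24, 8.83 and 9.43 in the WT arrays. The KO arrays lay within 0.17 log2 units of each other, and the WT arrays spanned 1.19.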
